A study of Mus musculus with 12 samples.

Results

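Genes of the T cell receptor complex and of T cells were followed in whole mouse lung: the CD3 chains of the receptor (Cd3d, Cd3e, Cd3g), the coreceptors Cd4 and Cd8a, the adhesion and costimulatory molecules Cd2, Cd28 and Slamf6, the receptor kinase Lck and the cytokine receptor Il7r. With earlier results of these data known, the 10 symbols were chosen by name. Of these, 9 had a probe that the platform annotation pairs with that symbol alone, among 22180 genes measured in all, and where a gene had several such probes, the brightest on average was read. Lck had no such probe and is not analysed here. Each mouse gave 1 array of whole lung RNA, with 3 female mice of 10 weeks in each of 4 groups. The groups were wild type lungs at baseline, wild type ventilated lungs, Zmpste24-/- lungs at baseline and Zmpste24-/- ventilated lungs. Zmpste24 encodes the metalloprotease that completes the maturation of lamin A. Baseline mice were intact. Ventilated mice received 2.5 hours of mechanical ventilation at an inspiratory pressure of 15 cmH2O with no end-expiratory pressure, a rate of 100 breaths per minute and room-air oxygen (a fraction of 0.21). The sources used here give neither the mouse strain nor the way the Zmpste24 allele was made, and the 4 groups hold no sham-handled mice.

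The T cell receptor recognises peptide on MHC molecules through its variable chains, and the CD3 chains carry the signal into the cell. CD4 or CD8 binds the MHC molecule and brings the kinase LCK to the receptor, while CD2 and CD28 add adhesion and costimulation. Lung holds circulating T cells in its capillaries as well as resident memory T cells and regulatory T cells in the tissue, and IL-7 receptor signals keep naive and memory T cells alive.

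The deposited values are normalized log2 expression, so a difference of 1 is a doubling. Array medians over all probes lay between 5.35 and 5.42. Arrays correlated with each other at 0.986 to 0.992 within groups and at 0.970 to 0.988 between groups, over probes. Zmpste24 itself lay between 8.5 and 9.28 in the 6 wild type arrays and between 5.01 and 5.91 in the 6 Zmpste24-/- arrays. The lung label held in every group: the mean log2 level of 13 epithelial and endothelial markers lay between 10.86 and 11.12 over the 12 arrays. Without a measured background, the size of a change is uncertain where a gene nears the array median. Changes in whole lung RNA cannot tell fewer T cells from less RNA per T cell.

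T cell genes were lower in Zmpste24-/- lungs than in wild type lungs, both in intact mice and after ventilation. At baseline all 9 measured genes had a negative genotype difference, from -0.82 to -0.23 with a median of -0.69, and 5 of the 9 passed the threshold as lower (adjusted p under 0.05 over all genes, limma): Cd3e, Cd2, Cd4, Cd8a and Slamf6. Over all genes 4.11% were called lower in this comparison, and the median difference was -0.01. After ventilation all 9 differences were again negative, from -1.60 to -0.27 with a median of -0.74. In that comparison 6 of 9 were called lower, the same 5 and Cd3g, against 6.08% of all genes with a median difference of 0.01. The genotype comparisons use different mice but share the estimate of spread. The same 5 genes were lower in both, as were 1.95% of all genes. No T cell gene of the 9 was called higher by genotype, where 2.2% of all genes were at baseline and 4.72% after ventilation. The genes were chosen with earlier results of these data known, so these shares are a description and do not test the list.

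The arrays of the genotypes did not overlap in 7 of the 9 genes at baseline and in all 9 after ventilation, with the Zmpste24-/- arrays always the lower ones. Over all genes 14.3% and 15.5% were separated in that direction, and 9.67% and 14.8% in the other. Ventilation itself moved fewer of these genes past the threshold. None of 9 passed in wild type lungs, where 7.2% of all genes did (3.67% higher and 3.53% lower) and 4 of the 9 had an unadjusted p under 0.05. In Zmpste24-/- lungs 2 of 9, Cd8a and Slamf6, were called lower, against 7.52% of all genes, and none higher, against 8.89%. The difference between the ventilation responses of the genotypes passed for none of the 9 (1 had an unadjusted p under 0.05), where 0.316% of all genes passed, 0.266% higher and 0.0496% lower. The share of all genes with an unadjusted p under 0.05 was not counted, so the unadjusted counts here have no measure beside them.

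**Figure D1:**
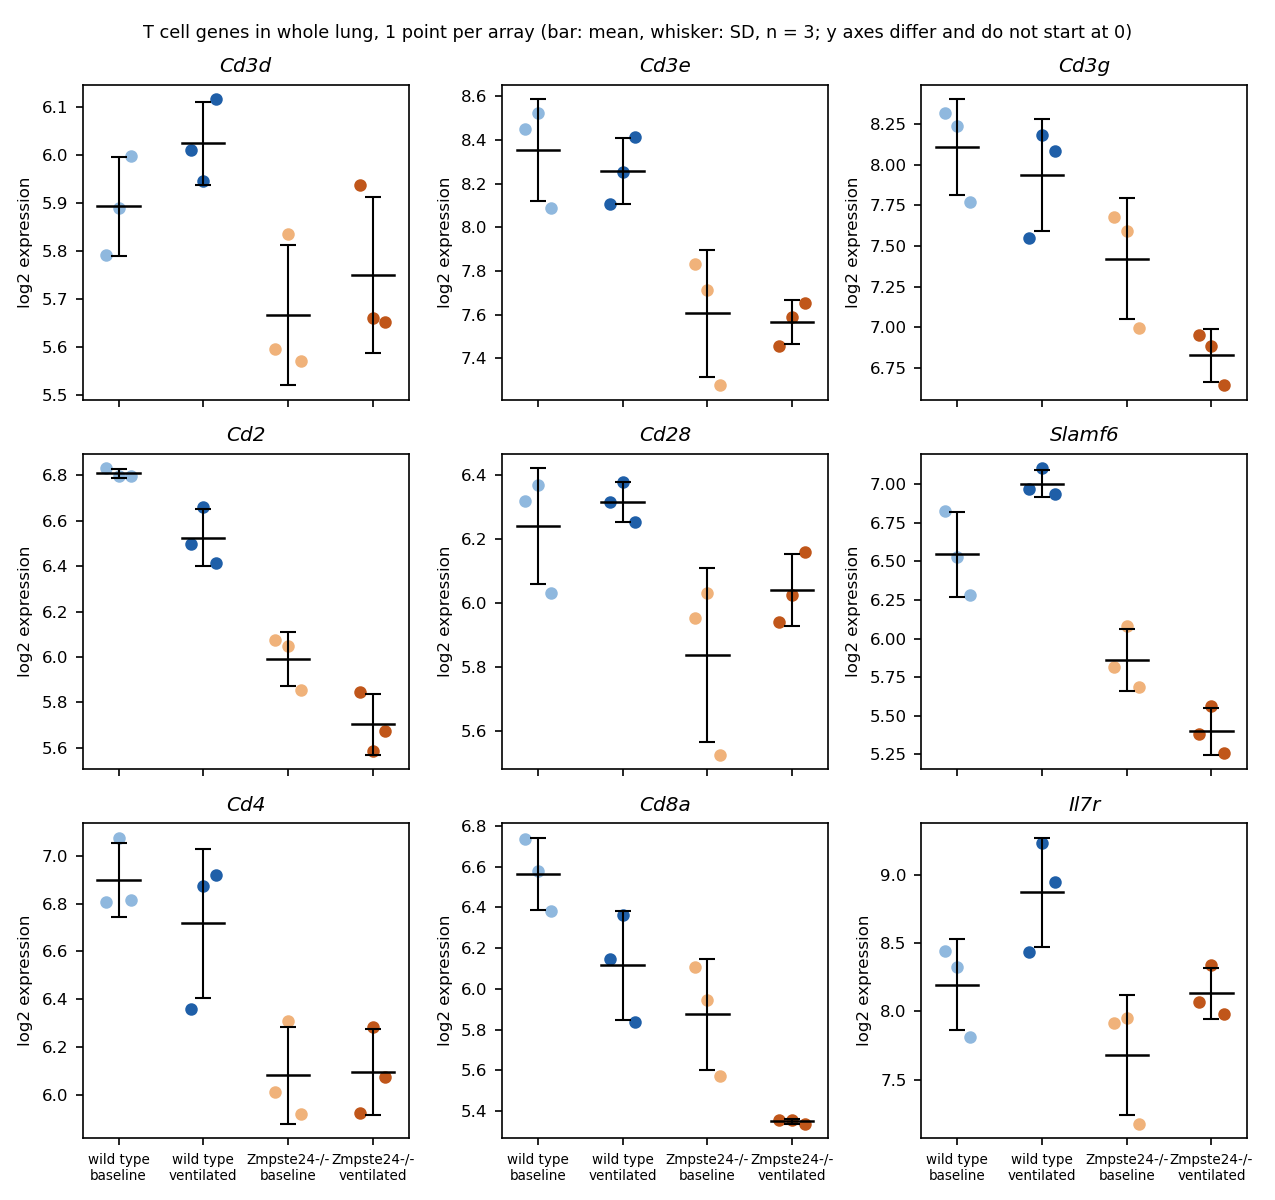
Log2 expression of 9 T cell genes (y axes, different in each panel) in the 4 groups (x axis), with 1 point per array in the order of replicate number, a bar at the mean and whiskers of 1 SD (n = 3). The Zmpste24-/- arrays lie below all wild type arrays of the same condition in 7 panels at baseline and in all 9 after ventilation, and Slamf6 moves apart between the genotypes after ventilation.

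**Figure D2:**
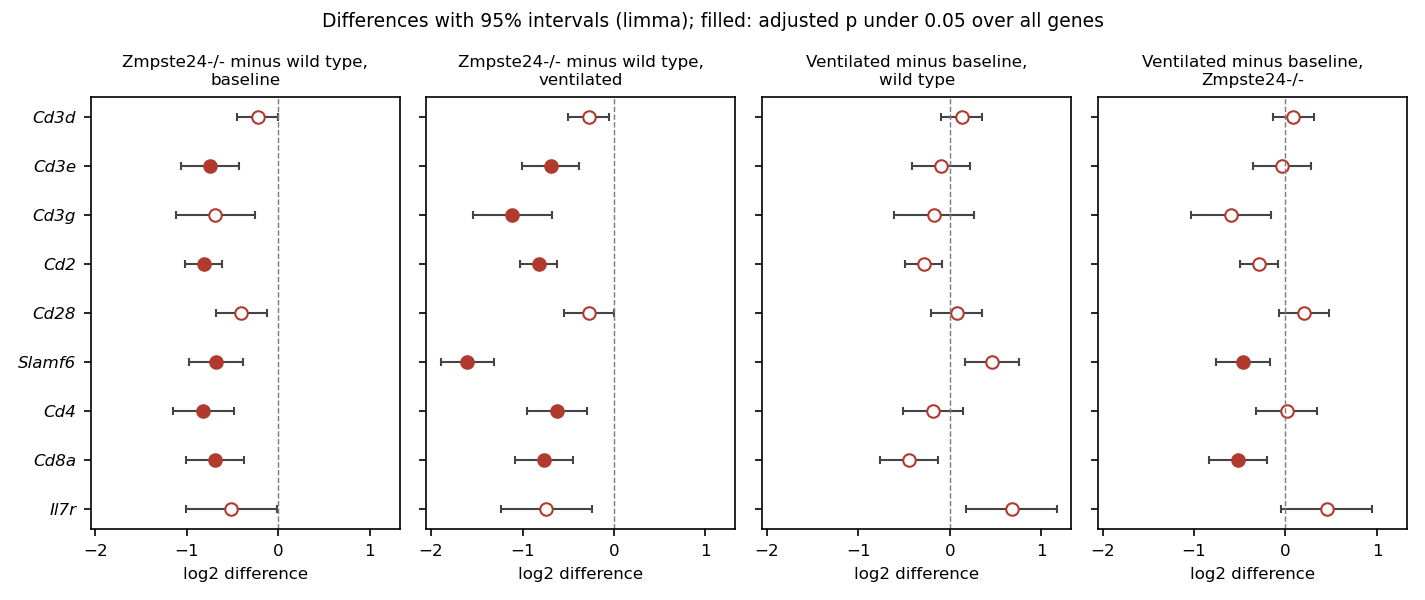
Log2 differences (x axis) of the 9 genes (y axis) in the 4 comparisons, with 95% intervals from limma and filled points where the adjusted p was under 0.05. Filled points number 5 and 6 in the genotype comparisons, 0 for ventilation in wild type lungs and 2 for ventilation in Zmpste24-/- lungs.

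The CD3 chains form the signalling module of the receptor, and their genes are neighbours in the mouse genome, with Cd3d between Cd3g and Cd3e. Cd3g and Cd3d are read in opposite directions from adjacent starts. The sequences before the starts of these neighbours are shown, since the CD3 chains are the core of the receptor, each 190 bases long and running from 250 to 61 bases before the annotated start, 5′ to 3′ on the strand of the gene. They are from RefSeq on GRCm38.p6, which paired 7 of the 10 listed genes with a promoter. Capitals mark matches to 5 short motifs of factors known from lymphocytes, searched on both strands. The core bound by ETS factors was searched as AGGAAG. For RUNX factors the letters were TGTGGT. The E-box of E proteins was taken as CAGGTG. For GATA factors the letters were AGATAA, and the TCF/LEF pair by CTTTGA.
Cd3g, chr9:44980492-44980681, minus strand: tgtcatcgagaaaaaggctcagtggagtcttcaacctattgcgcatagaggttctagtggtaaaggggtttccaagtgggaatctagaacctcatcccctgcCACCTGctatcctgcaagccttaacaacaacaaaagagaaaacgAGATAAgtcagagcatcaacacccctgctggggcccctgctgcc
Cd3d, chr9:44981536-44981725, plus strand: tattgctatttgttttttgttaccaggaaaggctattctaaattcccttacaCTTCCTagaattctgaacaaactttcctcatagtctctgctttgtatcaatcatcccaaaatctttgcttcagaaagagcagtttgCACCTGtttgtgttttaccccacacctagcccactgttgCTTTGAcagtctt
Cd3e, chr9:45009672-45009861, minus strand: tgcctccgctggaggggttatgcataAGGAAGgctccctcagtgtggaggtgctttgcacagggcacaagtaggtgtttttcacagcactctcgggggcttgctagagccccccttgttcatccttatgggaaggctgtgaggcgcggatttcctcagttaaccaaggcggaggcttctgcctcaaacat
The Cd3d window held 1 ETS core, 1 E-box and 1 TCF/LEF match, the Cd3e window 1 ETS core, and the Cd3g window 1 E-box and 1 GATA match. None of these overlapped another motif. Among 32851 promoter windows of the same length, 22.7% held the ETS core, 11% the RUNX letters, 13.8% the E-box, 8.06% the GATA letters and 11.3% the TCF/LEF letters. Matches of this kind are common by their length and are given as a description of the letters only.

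Cd3e, which encodes the epsilon chain present in both CD3 heterodimers, was lower in Zmpste24-/- lungs in both conditions. It stood at 8.45, 8.52 and 8.09 in wild type baseline arrays and at 7.83, 7.71 and 7.28 in Zmpste24-/- baseline arrays. After ventilation it stood at 8.11, 8.25 and 8.41 in wild type and at 7.46, 7.59 and 7.65 in Zmpste24-/- arrays. All 6 Zmpste24-/- arrays lay below all 6 wild type arrays. The genotype difference was -0.75 ± 0.15 (log2 difference ± standard error, as for all differences that follow) at baseline, with an adjusted p of 0.00912. It was -0.69 ± 0.15 after ventilation, with an adjusted p of 0.00867. These equal 1.68-fold and 1.62-fold lower levels. Ventilation moved Cd3e by -0.10 in wild type lungs (95% interval -0.41 to 0.22) and by -0.04 in Zmpste24-/- lungs (-0.36 to 0.27).

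Cd3g, the gamma chain, had the widest spread of the CD3 genes in both baseline groups. Wild type arrays stood at 8.32, 8.24 and 7.77 at baseline and at 7.55, 8.18 and 8.09 after ventilation. Zmpste24-/- arrays stood at 7.68, 7.59 and 6.99 at baseline and at 6.95, 6.89 and 6.64 after ventilation. The genotypes did not overlap within either condition, and the 3 Zmpste24-/- ventilated arrays were the lowest of all 12. The difference was called after ventilation, at -1.11 ± 0.20 (adjusted p = 0.0036, 2.16-fold lower). At baseline it was -0.69 ± 0.20 and missed the threshold (adjusted p = 0.0627). It passed there with replicate number as a block (adjusted p = 0.0446), with genes under the 25th percentile left out (0.0488) or under the median left out (0.0392), with array weights (0.0247) and without wild type baseline array 3 (0.0332). Ventilation changed Cd3g by -0.59 ± 0.20 in Zmpste24-/- lungs (adjusted p = 0.0624) and by -0.17 ± 0.20 in wild type lungs (adjusted p = 0.709), and the difference between these responses, -0.42 ± 0.29, had an adjusted p of 0.634. The first of these passed with the replicate block (adjusted p = 0.0429), without Zmpste24-/- baseline array 3 (0.017) and in 3 further settings.

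Cd3d, the delta chain, differed least. Its arrays in intact mice lay at 5.79, 5.89 and 6.00 for wild type and at 5.60, 5.84 and 5.57 for Zmpste24-/- lungs, and after ventilation at 6.01, 5.95 and 6.12 for wild type and at 5.94, 5.66 and 5.65 for Zmpste24-/- lungs. The genotypes overlapped at baseline and touched closely after ventilation, where the lowest wild type array exceeded the highest Zmpste24-/- array. The genotype differences were -0.23 ± 0.10 (adjusted p = 0.235) and -0.27 ± 0.10 (adjusted p = 0.115). Group means of the Cd3d probe lay only 0.29 to 0.61 above the array medians, whereas those of Cd3e lay 2.2 to 2.96 above. The 95% interval after ventilation was -0.50 to -0.05 for Cd3d and -1.55 to -0.68 for Cd3g, and the difference between these neighbours was not tested.

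The coreceptors divide T cells into helper and regulatory cells, which carry CD4, and cytotoxic cells, which carry CD8. Cd4 was lower in Zmpste24-/- lungs. It stood at 6.80, 7.08 and 6.82 in wild type baseline arrays and 6.01, 6.31 and 5.92 in Zmpste24-/- baseline arrays. After ventilation wild type arrays stood at 6.36, 6.87 and 6.92 and Zmpste24-/- arrays at 5.92, 6.28 and 6.08. No Zmpste24-/- array reached a wild type array, although wild type ventilated array 1 (6.36) came close to the highest Zmpste24-/- array (6.31). The difference was -0.82 ± 0.15 at baseline (adjusted p = 0.00721, 1.76-fold lower) and -0.62 ± 0.15 after ventilation (adjusted p = 0.019, 1.54-fold lower). The call after ventilation was lost on leaving out array 2 or array 3 of the ventilated wild type lungs (adjusted p = 0.0836 and 0.0846) and without Zmpste24-/- ventilated array 1 or 3 (0.0793 and 0.0617). Ventilation changed Cd4 by -0.18 in wild type lungs (95% interval -0.51 to 0.15) and by 0.01 in Zmpste24-/- lungs (-0.32 to 0.34).

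Cd8a, the alpha chain of CD8, was lower by genotype and lower again after ventilation in Zmpste24-/- lungs. Wild type arrays stood at 6.73, 6.58 and 6.38 at baseline and 6.14, 6.36 and 5.84 after ventilation. Zmpste24-/- arrays stood at 6.11, 5.94 and 5.57 at baseline and 5.36, 5.36 and 5.34 after ventilation. The groups descended in this order without overlap of arrays between ventilated and baseline lungs of one genotype, and between genotypes of one condition. The genotype difference was -0.69 ± 0.15 at baseline (adjusted p = 0.0141) and -0.76 ± 0.15 after ventilation (adjusted p = 0.00505, 1.70-fold lower). The baseline call was lost without wild type baseline array 1 (adjusted p = 0.0571) or Zmpste24-/- baseline array 3 (0.0644).

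Ventilation lowered Cd8a in Zmpste24-/- lungs by -0.52 ± 0.15 (adjusted p = 0.0255, 1.44-fold lower). The call was lost when any of 5 of the 6 arrays was left out, with adjusted p-values of 0.0603 to 0.108, all but Zmpste24-/- baseline array 3. In wild type lungs the change was -0.45 ± 0.15 and missed the threshold (adjusted p = 0.0869), with 0.0328 under the replicate block and 0.0444 without wild type ventilated array 2. The difference between the responses was -0.07, with a 95% interval of -0.52 to 0.37. The Zmpste24-/- ventilated arrays lay at the array medians (mean difference -0.01), so the size of the fall there is uncertain. Cd8b1, the beta chain that pairs with CD8 alpha on most cytotoxic T cells, was added after its values were seen. It had changes of -0.36 ± 0.14 and -0.34 ± 0.14 with ventilation in wild type and Zmpste24-/- lungs and of -0.33 ± 0.14 and -0.31 ± 0.14 by genotype at baseline and after ventilation, none of which passed.

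CD2 binds CD48 on neighbouring cells and strengthens their contact. Cd2 had the tightest values of the 9 genes in wild type baseline lungs, at 6.83, 6.80 and 6.80, against 6.07, 6.05 and 5.86 in intact Zmpste24-/- mice. After ventilation it stood at 6.5, 6.66 and 6.42 in wild type and 5.85, 5.59 and 5.67 in Zmpste24-/- lungs. The groups formed 4 steps with no array shared between neighbouring steps. The genotype difference was -0.82 ± 0.09 at baseline (adjusted p = 0.00047) and -0.82 ± 0.09 after ventilation (adjusted p = 0.00025), 1.76-fold and 1.77-fold lower. Both calls held in all 16 settings tried for each. The changes with ventilation were -0.28 ± 0.09 in wild type lungs (adjusted p = 0.0951) and -0.29 ± 0.09 in Zmpste24-/- lungs (adjusted p = 0.0531). The latter passed in 5 of 16 settings, with adjusted p-values of 0.0296 to 0.205 over all of them.

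CD28 is the receptor for the costimulatory ligands CD80 and CD86. Cd28 stood at 6.32, 6.37 and 6.03 in wild type baseline arrays, 6.32, 6.38 and 6.25 in wild type ventilated arrays, 5.95, 6.03 and 5.52 in Zmpste24-/- baseline arrays and 5.94, 6.02 and 6.16 in Zmpste24-/- ventilated arrays. Within each condition the Zmpste24-/- arrays were the lower ones, by a narrow margin. The genotype differences of -0.40 ± 0.13 (adjusted p = 0.0825) and -0.28 ± 0.13 (adjusted p = 0.204) did not pass. The first passed with array weights (adjusted p = 0.0433) and without wild type baseline array 3 (0.0443). Changes with ventilation were 0.08 (95% interval -0.20 to 0.35) in wild type and 0.20 (-0.07 to 0.48) in Zmpste24-/- lungs.

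Slamf6, a self-binding receptor of the SLAM family found on T, B and NK cells, had the largest genotype difference among the 9 genes after ventilation. Wild type arrays stood at 6.83, 6.52 and 6.28 at baseline and at 6.97, 7.10 and 6.94 after ventilation. Zmpste24-/- arrays stood at 5.82, 6.08 and 5.68 at baseline and at 5.38, 5.56 and 5.26 after ventilation. Every ventilated wild type array lay above, and every ventilated Zmpste24-/- array below, all baseline arrays of its genotype. Such opposite separation was seen in 0.532% of all genes and in no other gene of the 9.

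The genotype difference in Slamf6 was -0.68 ± 0.14 at baseline (adjusted p = 0.0103, 1.61-fold lower) and -1.60 ± 0.14 after ventilation (adjusted p = 3.55e-05, 3.03-fold lower). Ventilation changed it by 0.46 ± 0.14 in wild type lungs, which did not pass (adjusted p = 0.062), and lowered it by -0.46 ± 0.14 in Zmpste24-/- lungs (adjusted p = 0.0347). The difference between the responses was -0.92 ± 0.19, with an unadjusted p of 0.000353 and an adjusted p of 0.068. That test passed with genes under the median left out (adjusted p = 0.0407), with the replicate block (0.048) and without wild type baseline array 1 (0.0288), and ranged from 0.0288 to 0.168 over its 21 settings. The increase in wild type lungs passed in the same 3 settings, at adjusted p-values of 0.0388, 0.0308 and 0.0203.

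The baseline call of Slamf6 was lost without Zmpste24-/- baseline array 3 (adjusted p = 0.055). The fall with ventilation in Zmpste24-/- lungs was no longer called when Zmpste24-/- baseline array 1 or 2 was left out (adjusted p = 0.0645 and 0.145) or Zmpste24-/- ventilated array 1 or 3 (0.0836 and 0.142). A further probe of Slamf6 lay under the array medians on every array, between 4.16 and 4.84, so it gives no clear level. With the probes averaged, the baseline difference was -0.40 (adjusted p = 0.0502), the fall with ventilation in Zmpste24-/- lungs -0.22 (adjusted p = 0.212). The genotype difference after ventilation was then -0.99 in place of -1.60 (adjusted p = 0.000215), so its size depends on the probes read. The call held with the average, which still contains the brighter probe and says nothing of the further probe alone. The Zmpste24-/- ventilated arrays averaged 0.04 above the array medians, so the size of the difference there is uncertain.

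The sequences before the starts of Cd8a and Slamf6, the 2 genes called for ventilation, are shown in the same windows.
Cd8a, chr6:71373177-71373366, plus strand: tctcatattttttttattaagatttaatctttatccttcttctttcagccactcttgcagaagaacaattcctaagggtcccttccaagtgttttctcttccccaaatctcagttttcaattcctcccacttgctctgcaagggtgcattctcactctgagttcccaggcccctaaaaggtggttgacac
Slamf6, chr1:171917212-171917401, plus strand: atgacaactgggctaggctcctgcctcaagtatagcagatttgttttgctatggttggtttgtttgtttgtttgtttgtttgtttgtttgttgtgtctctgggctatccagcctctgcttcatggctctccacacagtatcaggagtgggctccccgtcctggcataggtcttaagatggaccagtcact
Neither window held any of the 5 motifs, which says only that those letters are not in these 190 bases.

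Il7r, the alpha chain of the receptor for IL-7, which T cells and innate lymphoid cells share, had the largest SD of the 9 genes in every group. It stood at 8.44, 8.33 and 7.82 in wild type baseline, 8.44, 9.23 and 8.95 in wild type ventilated, 7.92, 7.95 and 7.18 in Zmpste24-/- baseline and 8.07, 8.34 and 7.98 in Zmpste24-/- ventilated arrays. The ventilated arrays of Zmpste24-/- lungs lay above their baseline arrays, and those of wild type lungs overlapped theirs at the edge. None of its comparisons passed. The changes with ventilation were 0.68 ± 0.23 in wild type (adjusted p = 0.102) and 0.45 ± 0.23 in Zmpste24-/- lungs (adjusted p = 0.234). The genotype differences were -0.51 ± 0.23 at baseline (adjusted p = 0.225) and -0.74 ± 0.23 after ventilation (adjusted p = 0.0578). The last of these passed in 7 of 16 settings, with 0.0185 without wild type ventilated array 1 and 0.0283 under the replicate block.

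Across arrays of the same group, most of these genes went up and down together. With group means subtracted, 30 of the 36 gene pairs had a positive Pearson correlation over the 12 arrays, with a median of 0.51. The closest pair was Cd3g with Il7r (0.95), followed by Cd3e with Cd28 (0.84). Cd3d stood apart, with correlations between -0.26 and 0.30 with the other genes. The arrays share their scaling, and these values are a description with no test. Zmpste24-/- baseline array 3 was the lowest of its group in all 9 genes (mean deviation -0.27) and wild type baseline array 3 in 6 of 9 (mean deviation -0.18). Without the former, 3 of the 9 genes were called lower by genotype at baseline instead of 5, and without the latter 7 were. In the former array the B cell and neutrophil marker lists were also the lowest of their group, with means of 6.80 and 6.14, as were the NK cell, dendritic cell, T cell receptor signalling, other T cell identity, costimulation and T cell activation lists, and the part of this in the result was not tested.

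**Figure D3:**
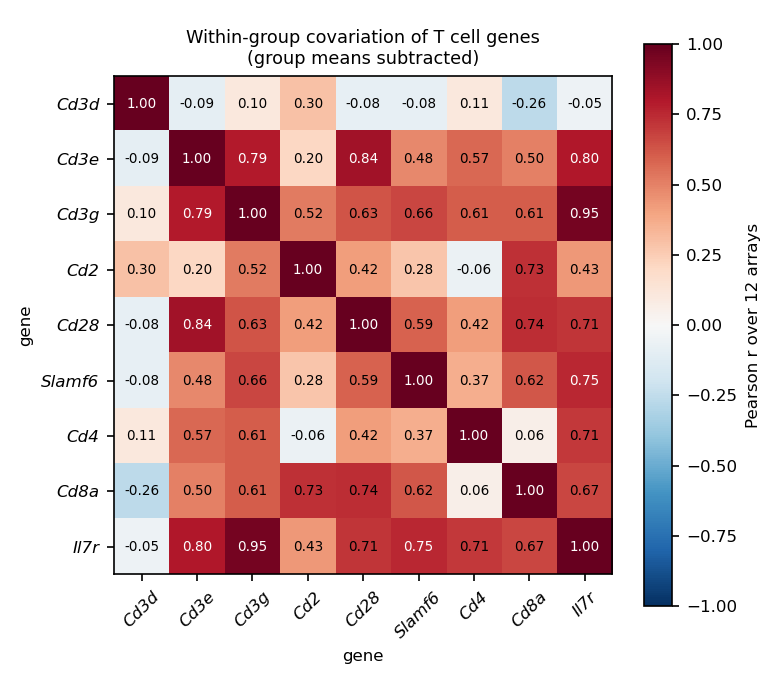
Pearson correlation (colour and number) between pairs of the 9 genes (both axes) over the 12 arrays after each array value had its group mean subtracted. Cd3e, Cd3g, Cd28 and Il7r are correlated at 0.63 or more with each other, and Cd3d lies between -0.26 and 0.30 with every other gene.

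Among 11083 other genes above the median level, those most like the mean of the 9 genes over the 12 arrays were Gimap3 (r = 0.98), Dock2 (0.97), Cdk6 (0.97), Camk1d (0.97) and Il27ra (0.97), followed by Itga4, Grap2, Dgka, Lair1 and Cdk5rap1. Gimap3, a GTPase of lymphocytes, differed by -0.82 at baseline and by -0.87 after ventilation between the genotypes (adjusted p = 0.00313 and 0.00129). Itga4, the integrin alpha 4 chain used in lymphocyte homing, differed by -0.93 and -1.12 (adjusted p = 0.00135 and 0.000243). These values carry the genotype difference in them. With group means subtracted the nearest genes were Rnf149 (r = 0.94), Heatr6 (0.94), Gpr65 (0.93), Irak3 (0.93), Ptpn22 (0.93) and Gimap3 (0.92), then Cpt1a, Cytip, Iqgap1 and Vps16. Gimap3 was the only gene among the first 10 by both measures.

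Of 23 measured genes for proteins of T cell receptor signalling, 11 were called lower in Zmpste24-/- lungs at baseline and 9 after ventilation, and none higher, with list medians of -0.46 and -0.30. The shares called lower over all genes were 4.11% and 6.08%. Txk, a TEC family kinase of T cells, differed by -0.61 ± 0.09 at baseline (adjusted p = 0.00224) and by -1.0 ± 0.09 after ventilation (adjusted p = 5.67e-05). Prkcq, the protein kinase C isoform at the T cell contact, differed by -0.71 ± 0.08 and -0.39 ± 0.08 (adjusted p = 0.00028 and 0.00496). The adaptor Grap2 differed by -0.58 ± 0.11 and -0.81 ± 0.11 (adjusted p = 0.00952 and 0.00079), and the phospholipase Plcg1, which many cell types use, by -0.27 ± 0.08 (adjusted p = 0.0575) and -0.48 ± 0.08 (adjusted p = 0.00191). Ventilation called 1 of the 23 lower in wild type lungs, Prkcq (-0.39 ± 0.08, adjusted p = 0.00707), and 1 higher and 1 lower in Zmpste24-/- lungs. Of all genes, 3.53% were called lower in wild type lungs, and 8.89% higher and 7.52% lower in Zmpste24-/- lungs. Ptprc, which encodes the leukocyte surface phosphatase CD45 and was singled out after its values were seen, differed by -0.63 ± 0.12 at baseline (adjusted p = 0.0073) and by -0.24 ± 0.12 after ventilation (adjusted p = 0.231).

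Of 20 other T cell identity genes, 3 were called lower at baseline and 6 lower and 1 higher after ventilation, with list medians of -0.31 and -0.27. Over all genes 4.11% were called lower at baseline, and 6.08% lower and 4.72% higher after ventilation. Ikzf3, a lymphocyte transcription factor, differed by -0.82 ± 0.16 and -1.19 ± 0.16 (adjusted p = 0.0103 and 0.000702), and Lef1, a partner of beta-catenin in T cells, by -0.63 ± 0.13 and -0.78 ± 0.13 (adjusted p = 0.0126 and 0.00235). Bcl11b, needed to keep T cell identity, was lower after ventilation (-0.81 ± 0.10, adjusted p = 0.000275) and not called at baseline (-0.24 ± 0.10, adjusted p = 0.159). The gene called higher was Icos, an inducible costimulator of activated T cells. Ventilation raised Icos by 0.80 ± 0.10 in Zmpste24-/- lungs (adjusted p = 9.54e-05) and changed it by 0.14 ± 0.10 in wild type lungs (adjusted p = 0.455). The difference between these responses, 0.66 ± 0.14, had an adjusted p of 0.0638. Constant regions of the receptor chains and Cd247 had no probe of their own in the annotation and are not analysed here.

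The costimulation and accessory list holds receptors of T cells, their ligands on other cells and proteins that bind their tails. Of its 19 genes, 5 were called lower at baseline, and 4 lower and 1 higher after ventilation by genotype. That compares with 4.11% of all genes lower at baseline, and 6.08% lower and 4.72% higher after ventilation. Cd48, the ligand of CD2, was lower in all 4 comparisons, by genotype at -0.73 ± 0.13 and -0.76 ± 0.13 (adjusted p = 0.00513 and 0.00228) and with ventilation at -0.47 ± 0.13 and -0.51 ± 0.13 (adjusted p = 0.0397 and 0.0144). Cd80, a ligand of CD28 on antigen-presenting cells, rose with ventilation by 0.49 ± 0.14 in wild type lungs (adjusted p = 0.0475) and by 1.15 ± 0.14 in Zmpste24-/- lungs (adjusted p = 8.92e-05). Slamf7, of the same family as Slamf6, differed by -0.88 ± 0.13 and -0.65 ± 0.13 by genotype (adjusted p = 0.00224 and 0.00691), and Il16, a chemoattractant for CD4 cells, fell by 0.50 with ventilation in wild type lungs (adjusted p = 0.00277).

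In the IL-7 and common gamma chain group, 2 of 17 measured genes were called lower at baseline and 3 after ventilation by genotype, with medians of -0.17 and -0.01. The shares of all genes called lower were 4.11% and 6.08%. Il2rb, a receptor chain shared by IL-2 and IL-15, differed by -1.04 ± 0.14 at baseline (adjusted p = 0.00121) and by -0.29 ± 0.14 after ventilation (adjusted p = 0.211). Bcl2, the survival factor that IL-7 sustains, differed by -0.38 ± 0.10 and -0.52 ± 0.10 (adjusted p = 0.0453 and 0.00644). Il21r differed by -0.58 ± 0.13 after ventilation (adjusted p = 0.0133). Cish, a feedback inhibitor induced by STAT5, rose by 0.65 ± 0.10 with ventilation in Zmpste24-/- lungs (adjusted p = 0.000417). Il7 itself, added after its values were seen, differed by -0.04 ± 0.11 and 0.02 ± 0.11 by genotype and did not pass. It lay under the array medians on every array, between 4.53 and 4.90, so these small differences say little.

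Among 12 T cell activation genes, ventilation called 1 higher in wild type lungs and 4 higher in Zmpste24-/- lungs, with none lower. Over all genes 3.67% and 8.89% were called higher. Egr2 (1.81 ± 0.24, adjusted p = 0.000186), Tnf (1.13 ± 0.22, adjusted p = 0.00278), Cd44 (0.47 ± 0.11, adjusted p = 0.00881) and Nfatc1 (0.33 ± 0.10, adjusted p = 0.0402) rose in Zmpste24-/- lungs, and all 4 are also expressed by cells other than T cells. By genotype 2 of the 12 were lower at baseline, with Nfatc1 at -0.49 ± 0.10 (adjusted p = 0.0119), and 2 were lower and 1 higher after ventilation, Egr2 (1.25 ± 0.24, adjusted p = 0.00493). Of all genes 4.11% were lower at baseline, and 6.08% lower and 4.72% higher after ventilation. Cd69 averaged 7.32 in wild type and 6.38 in Zmpste24-/- lungs at baseline, and 7.51 and 6.60 after ventilation. The cytokine genes Il2, Ifng, Il17a and Il4 lay under the array medians on all 12 arrays.

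Other lymphocyte markers were lower along with the T cell genes. Over all genes 4.11% were called lower by genotype at baseline and 6.08% after ventilation. Of 11 measured B cell markers 8 were called lower in Zmpste24-/- lungs at baseline and 11 after ventilation, with list medians of -0.83 and -1.1, and Cd22 differed by -1.51 ± 0.18 after ventilation (adjusted p = 0.000275). The mean log2 level of that list lay between 7.47 and 8.04 in wild type baseline, 7.04 and 7.60 in wild type ventilated, 6.80 and 7.20 in Zmpste24-/- baseline and 6.18 and 6.53 in Zmpste24-/- ventilated arrays. Of 12 NK cell markers 9 and 8 were called lower by genotype, with medians of -0.95 and -0.58, and Gzmb differed by -1.25 ± 0.12 at baseline (adjusted p = 0.000147). Their mean level lay between 6.21 and 6.44, 5.90 and 5.99, 5.36 and 5.43, and 5.14 and 5.36 in the same order of groups. Gzmb lay under the array medians in every Zmpste24-/- array, so the size of its difference is uncertain. Some of the 9 genes, such as Cd2 and Slamf6, are also expressed by NK cells or B cells, and the part of these cells in the T cell gene differences was not tested.

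Thymic tissue near the lung was looked for by its markers. Rag2 and Dntt, which thymocytes need to rearrange their receptors, lay under the array medians on all 12 arrays, between 3.61 and 3.91 and between 3.66 and 4.0. Ptcra, the surrogate alpha chain of the thymocyte receptor, lay above the array medians on all 12, between 5.66 and 6.15, and its genotype differences of 0.04 ± 0.12 and 0.02 ± 0.12 did not pass. These 3 genes were singled out after their values were seen. The mean level of 11 thymocyte markers lay between 5.36 and 5.46, 5.30 and 5.37, 5.31 and 5.41, and 5.22 and 5.33 in wild type baseline, wild type ventilated, Zmpste24-/- baseline and Zmpste24-/- ventilated arrays. Arpp21, Cd1d1 and Ccr9 also lay under the array medians on all 12 arrays, so the steady mean of this list says little. By genotype 1 of the 11 was called lower in each condition, beside 4.11% and 6.08% of all genes. It was H2-Ob, which B cells also express (-0.89 ± 0.15 after ventilation, adjusted p = 0.00257). Aqp11 was lower with ventilation in wild type (-0.49 ± 0.12, adjusted p = 0.0284) and in Zmpste24-/- lungs (-0.67 ± 0.12, adjusted p = 0.00188).

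Of 13 dendritic cell markers 6 were called lower and 1 higher by genotype in each condition, with medians of -0.37 and -0.39, against 4.11% and 6.08% of all genes called lower. The shares of all genes called higher were 2.2% and 4.72%. H2-Ab1, an MHC class II chain, differed by -0.79 ± 0.12 after ventilation (adjusted p = 0.00111), Ciita, its activator, by -0.62 ± 0.12 (adjusted p = 0.00473), and Ccl22, a chemokine that draws regulatory T cells, by -1.18 ± 0.12 at baseline (adjusted p = 0.000178). Ccl17, which also draws T cells, rose with ventilation by 1.30 ± 0.23 in wild type lungs (adjusted p = 0.00414) and by 1.5 ± 0.23 in Zmpste24-/- lungs (adjusted p = 0.000626). Of 8 innate lymphoid cell markers 1 was called lower by genotype in each condition, and Klrg1 differed by -0.71 ± 0.09 at baseline (adjusted p = 0.00105). A single gene in so short a list is near the share over all genes. Klrg1 lay under the array medians in every Zmpste24-/- array, so the size of its difference is uncertain. Macrophage and monocyte markers were called lower in 2 of 12 at baseline and higher in 1 after ventilation, beside 4.11% and 4.72% of all genes. Cd68 differed by -0.61 ± 0.11 at baseline (adjusted p = 0.00521). Of 9 proliferation genes 1 was called lower at baseline and 3 after ventilation by genotype, beside the same 4.11% and 6.08% of all genes, and Top2a differed by -0.67 ± 0.18 after ventilation (adjusted p = 0.0285). Top2a and Bub1, the gene called at baseline, lay under the array medians on every array, so the sizes of their differences are uncertain. Mki67, also called after ventilation, lay above the medians on every array.

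Most neutrophil markers went the other way. Of 11 measured, 3 rose with ventilation in wild type and 7 in Zmpste24-/- lungs, and Il1r2 rose by 2.40 ± 0.27 in the latter (adjusted p = 6.11e-05). By genotype 1 was higher at baseline, and 5 were higher and 1 lower after ventilation. The lower one was Ltf, which averaged 8.25 in wild type and 5.90 in Zmpste24-/- ventilated lungs. Ly6g, Camp and Ngp lay under the array medians on every array. Of all genes, ventilation called 3.67% higher in wild type and 8.89% in Zmpste24-/- lungs. Genotype called 2.2% higher at baseline, and 4.72% higher and 6.08% lower after ventilation. The mean level of the list lay between 6.03 and 6.34 in wild type baseline, 6.70 and 7.26 in wild type ventilated, 6.14 and 6.80 in Zmpste24-/- baseline and 7.44 and 7.54 in Zmpste24-/- ventilated arrays. The part of this in the T cell gene values was not tested. The 13 epithelial and endothelial markers had 2 lower at baseline, and 2 higher and 2 lower after ventilation by genotype, with medians of 0.09 and 0.02. In intact Zmpste24-/- lungs the endothelial Cdh5, Tie1, Cldn5 and Pecam1 all averaged lower than in wild type. Of the epithelial genes all but Lamp3 averaged higher, so the pooled mean hides both. Ventilation called 3 of the 13 lower in each genotype (3.53% of all genes in wild type and 7.52% in Zmpste24-/- lungs). Cldn5 changed by -0.87 ± 0.11 in wild type lungs (adjusted p = 0.000557). Among 6 red cell and platelet markers 1 and 2 were lower by genotype, beside 4.11% and 6.08% of all genes. Ppbp differed by -1.38 ± 0.17 after ventilation (adjusted p = 0.000336).

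**Figure D4:**
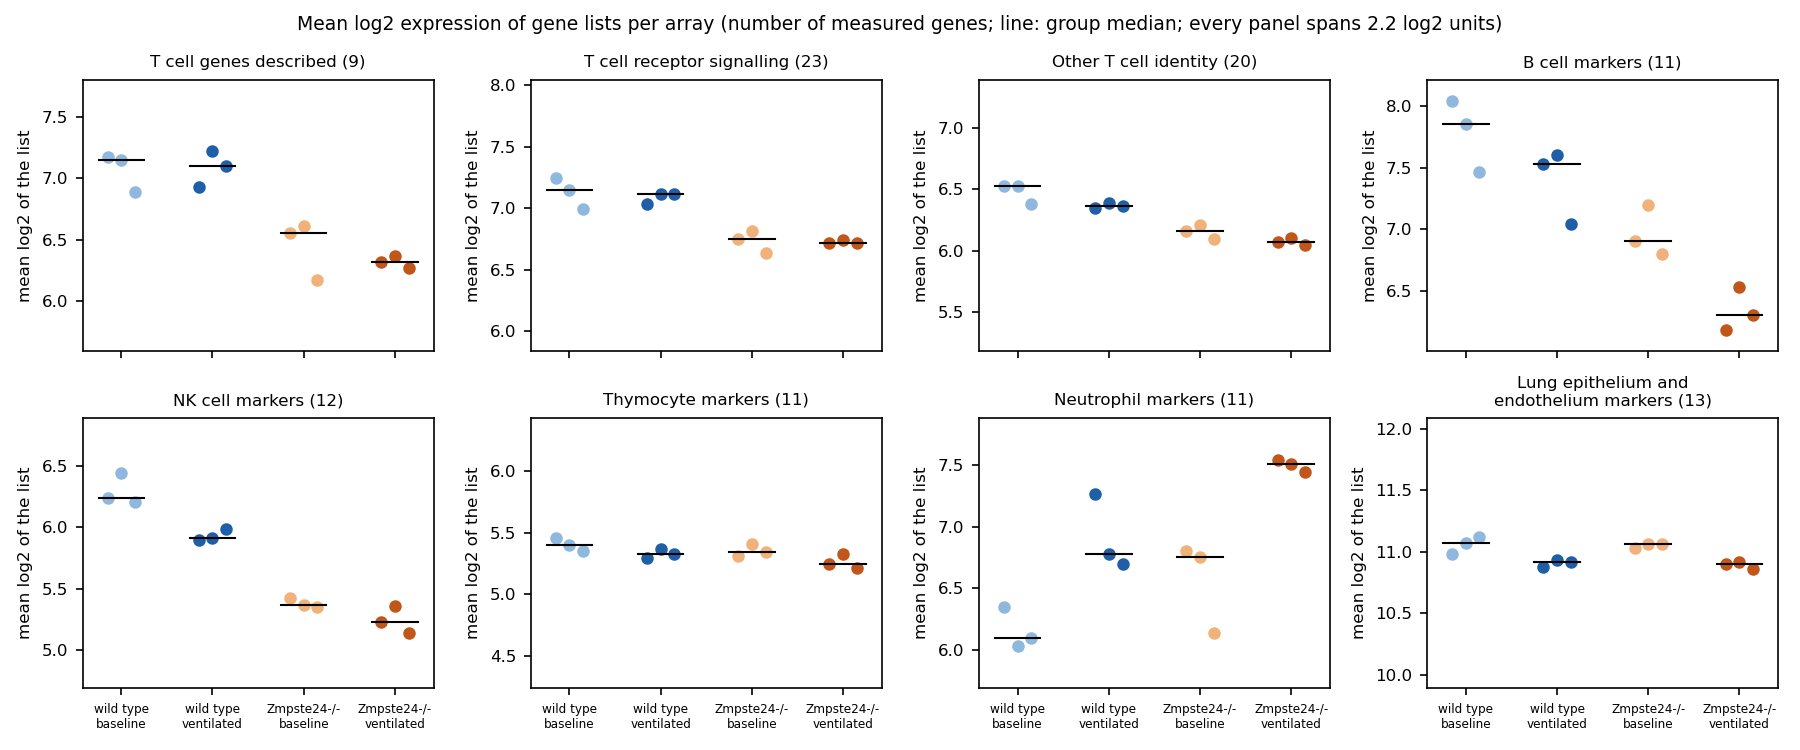
Mean log2 expression of 8 gene lists (y axes, each spanning the same range) in the 4 groups (x axis), with 1 point per array and a line at the group median. The 9 T cell genes, the B cell and the NK cell markers lie lower in Zmpste24-/- arrays. The means of the thymocyte markers lie between 5.22 and 5.46 and those of the pooled epithelial and endothelial markers between 10.86 and 11.12. Rag2, Dntt, Arpp21, Cd1d1 and Ccr9 lie under the array medians throughout, so the steady thymocyte mean says little.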

How the data were processed

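RNA from 12 whole mouse lungs was hybridised to one-colour Affymetrix arrays, 1 per mouse, per the labels' protocols. The authors deposited log2 expression per probe. The submitters' processing notes name RMA and limma without versions. That the scale is log2 follows from the values themselves, which span 2.41 to 13.5. Values were used as deposited, and 3 arrays a group limit the precision. P-values set each difference against the spread between mice within groups, as limma estimates it with information shared across genes.

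Of 41345 probes, 23521 had 1 gene symbol, 1814 several and 16010 none in the platform annotation. Symbols were updated to RefSeq through gene identifiers (23328 matched), and the probe of highest mean stood for its gene. With limma 3.58.1 (R 4.3.3), 22180 genes were fitted over the 12 arrays with a mean for each group, a step tested on simulated data. Benjamini-Hochberg adjustment ran over all genes in each of 5 contrasts, at a threshold of 0.05. Figures were drawn with matplotlib 3.10.9. Alternatives covered filters, scaling, variance models, probe choice, a replicate block and each array left out.

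The T cell genes, lists and alternatives were chosen with earlier results of these data known. Up to 4 genes per list, those with the smallest adjusted p, were named. Cd8b1, Ptprc, Il7, Rag2, Dntt, Ptcra, Arpp21, Cd1d1, Ccr9, Cd69, Il2, Ifng, Il17a, Il4, Ltf, Ly6g, Camp, Ngp, Cdh5 and Lamp3 were added after their values were seen. Genes without a probe of 1 symbol are not analysed here. Scan dates and slides are unknown, so batches could not be tested.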

Additional observations from a re-analysis of the deposited data

Results flagged for a closer look

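Slamf6 was picked out because every ventilated wild type array lay above its baseline arrays while every ventilated Zmpste24-/- array lay below its own. The difference of the ventilation responses was -0.92 ± 0.19 on the log2 scale, with a limma adjusted p of 0.068 over all genes. A complete separation in opposite directions was present in 118 of 22180 genes.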

How the results depend on the processing

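The 5 T cell genes lower by genotype at baseline became 3 to 7 with 1 array left out, and the 6 after ventilation 5 to 7. The 2 called lower by ventilation in Zmpste24-/- lungs became 4 with genes under the 25th percentile left out, 1 with a gene's probes averaged, and 0 to 4 with 1 array left out, and 1 (Il7r) was called higher with array weights. In wild type lungs 1 was called higher with genes under the median left out and with the replicate block, 1 lower with the replicate block, and 0 to 1 in each direction with 1 array left out. For the interaction 1 was called lower with genes under the median left out, with the replicate block, and 0 to 1 with 1 array left out. Over all genes the interaction count of 70 became 152 with genes under the median left out, 26 with quantile normalization, 112 with a trended robust variance, 164 with array weights, 43 with the replicate block and 8 to 118 with 1 array left out. The ventilation count in wild type lungs, 1597, became 923 with only the groups compared and 799 to 1307 with 1 array left out. The genotype counts, 1399 and 2395, became 646 to 1314 and 1369 to 2510. Small uncalled differences changed sign. Cd3e in Zmpste24-/- lungs under ventilation was 0.0607 with array weights and ran from -0.205 to 0.0720 with 1 array left out, Cd3d there from -0.0104 to 0.168 and Cd4 there from -0.0813 to 0.127. In wild type lungs Cd28 ran from -0.0274 to 0.141 and Cd3g from -0.341 to 0.0253. Cd3d and Cd8a fall under the median of genes and have no value with those genes left out. Same-numbered arrays of different groups deviated with correlations of -0.15 to 0.15 over all genes, 2 of 18 over 0.1, so the numbers were not taken as pairs and the block is given as an alternative only.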
